A study of Homo sapiens with 12 samples.

Results

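Catalytically dead TIP60 was compared with empty vector in MCF10A, an epithelial line from human breast that forms no tumours, after both lines had received TIP60 siRNA. The dead copy is siRNA-resistant, so that it remains when the cell's own TIP60 is depleted, and the comparison asks what such a copy restores or worsens. Of 8712 cassette-exon events listed in any of the 12 libraries of the series, 5391 were listed in all 4 libraries compared. The 2906 events described here had 10 or more isoform-specific reads in every one of the 4. Such reads can come from the form with the exon or from the form without it, but not from both. The events lie in 2019 named genes. The smallest of the 4 counts was 10 or 11 for 206 of them, and 279 events that were left out had 8 or 9. Of the 2906, 174 are on alternate or unplaced contigs and can repeat the reads of an event on a main chromosome.

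Each of the 6 groups of the series has 2 libraries numbered 1 and 2, all from cells taken 72 h after transfection. The 3 stable derivatives of MCF10A carry the MSCV vector alone, *WT-TIP60 (a wild-type copy that the siRNA spares) or *KD-TIP60, in which KD means catalytically dead and not knockdown. Every group received an siRNA, either the control or that against TIP60, and libraries came from a stranded mRNA kit. The labels do not say whether the libraries of a group came from separate cultures, or whether a line is 1 clone or a pool, so that p-values measure only the spread between these libraries.

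TIP60, the product of KAT5, is a lysine acetyltransferase and the catalytic subunit of the NuA4/TIP60 chromatin complex, which acetylates histones H4 and H2A and exchanges histone variants. It also acetylates other proteins, among them the kinase ATM and p53. A cassette exon is either kept in the mature mRNA or skipped, and its inclusion level is the share of transcripts that keep it.

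The 4 libraries held 1985994 and 1319097 event reads in vector cells and 2280488 and 1277953 in dead-TIP60 cells, counting reads that fit at least 1 form of an event. The median 95% interval of a level was 0.3 and 0.4 wide in vector cells and 0.27 and 0.43 in dead-TIP60 cells. Library 2 of the dead-TIP60 cells was the shallowest of the 4 for 1387 of the 2906 events. Libraries with the same number deviated together in all 15 pairs of groups (r from 0.706 to 0.779 across events for the level), and the replicate number was therefore kept as a block. For the groups compared here r was 0.706 for the level and 0.559 for event reads. Reads that fitted neither form made up 50.1% in library 1 and 65.7% in library 2 of vector cells. In dead-TIP60 cells they were 52.9% and 64.5%, and the other groups had a like split. Its part in the results was not tested. Of the markers with a listed event, COL17A1, ITGB4, LAMA3 and TP63, which mark basal epithelium, together had 2221 to 3967 RPM, that is, event reads divided by the event reads of the library and scaled to 1000000. CDH1, CTNND1 and ESRP1, which mark epithelium, had 1085 to 1932. The only immune marker listed was LYZ, at 0 in 3 libraries and 15.7 RPM in library 2 of dead-TIP60 cells.

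KAT5 was not among the 2906 events, because vector cells treated with TIP60 siRNA had 10 and 2 isoform-specific reads for its 1 listed cassette exon of 156 nt (chr11:65713348-65713503, plus strand, hg38). The form without this exon had 885 and 28.2 RPM in dead-TIP60 cells. In vector cells it had 2.52 RPM (5 reads) and 0 reads, where 3 reads would be 2.27 RPM. The form without the exon was thus 352-fold higher in pair 1 and at least 12.4-fold higher in pair 2, against a floor of 3 reads per library. The form with the exon had 3.95 and 0 RPM in dead-TIP60 cells and 2.52 and 1.52 RPM in vector cells, from 9, 0, 5 and 2 reads. In a fit with no read minimum, the log2 difference of all reads of the event was 5.56 ± 0.8 (SE, limma adjusted p = 0.192). The construct was therefore read mainly as the shorter form, with far more reads in library 1 than in library 2, while the longer form had a few reads in both lines.

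The sequences below are those of the KAT5 exon and of 5 coding exons that the following results turn on. EIF4H, PUM2 and ABI1 had lower levels in dead-TIP60 cells in both pairs, and ADD3 and SBF1 had like levels in both lines. They are from GENCODE 29 transcripts (GRCh38), read 5′ to 3′ on the strand of the gene. Capitals mark the cassette exon and lower case the 10 bases of its neighbours in the spliced transcript.
KAT5, 156 nt: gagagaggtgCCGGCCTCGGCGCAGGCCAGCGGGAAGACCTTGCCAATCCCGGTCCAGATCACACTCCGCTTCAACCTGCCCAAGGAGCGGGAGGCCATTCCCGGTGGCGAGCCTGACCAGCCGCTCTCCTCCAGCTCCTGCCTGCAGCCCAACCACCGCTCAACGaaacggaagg
EIF4H, 60 nt: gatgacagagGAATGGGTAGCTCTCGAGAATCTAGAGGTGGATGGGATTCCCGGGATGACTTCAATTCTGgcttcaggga
PUM2, 237 nt: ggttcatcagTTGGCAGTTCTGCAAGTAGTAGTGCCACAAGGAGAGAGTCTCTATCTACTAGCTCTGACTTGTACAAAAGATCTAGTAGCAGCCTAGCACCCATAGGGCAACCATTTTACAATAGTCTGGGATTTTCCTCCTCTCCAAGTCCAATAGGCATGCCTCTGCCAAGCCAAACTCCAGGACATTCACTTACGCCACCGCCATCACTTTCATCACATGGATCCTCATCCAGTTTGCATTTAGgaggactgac
ABI1, 87 nt: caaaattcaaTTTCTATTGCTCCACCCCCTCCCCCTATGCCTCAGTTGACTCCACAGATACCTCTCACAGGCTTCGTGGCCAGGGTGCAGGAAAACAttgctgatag
ADD3, 96 nt: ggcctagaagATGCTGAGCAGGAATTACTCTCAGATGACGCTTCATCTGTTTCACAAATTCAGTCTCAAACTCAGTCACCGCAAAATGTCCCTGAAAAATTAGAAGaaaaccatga
SBF1, 78 nt: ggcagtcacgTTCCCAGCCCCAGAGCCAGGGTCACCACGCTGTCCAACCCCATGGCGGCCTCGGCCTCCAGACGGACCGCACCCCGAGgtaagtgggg
All of them keep the reading frame, adding 52, 20, 79, 29, 32 and 26 codons, and all of their bases lie in the coding sequence of the transcript used.

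The inclusion levels of the lines were close. No event of 2906 (0%) differed at an adjusted p under 0.05 (limma, two-sided, Benjamini-Hochberg over 2906 events), and the smallest adjusted p was 0.382. At an unadjusted p under 0.05 there were 143 events (4.92%), 64 higher (2.20%) and 79 lower (2.72%) in dead-TIP60 cells. The median difference, dead TIP60 minus vector, was 0, and the events lay between -0.085 and 0.09 from the 5th to the 95th percentile. For 2158 events (74.3%) the means differed by less than 0.05. Differences of the same event in pair 1 and pair 2 were unrelated across events (Pearson r = -0.0378, n = 2906 events that share libraries and depth). On data simulated with these libraries' means and spreads, the same fit called 49% of shifts of 0.2 and 86% of shifts of 0.4. The shifts were put only into events with mean levels between 0.1 and 0.9, away from the nearer end of the scale. These shares therefore do not hold for events with levels near 0 or 1.

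**Figure D1:**
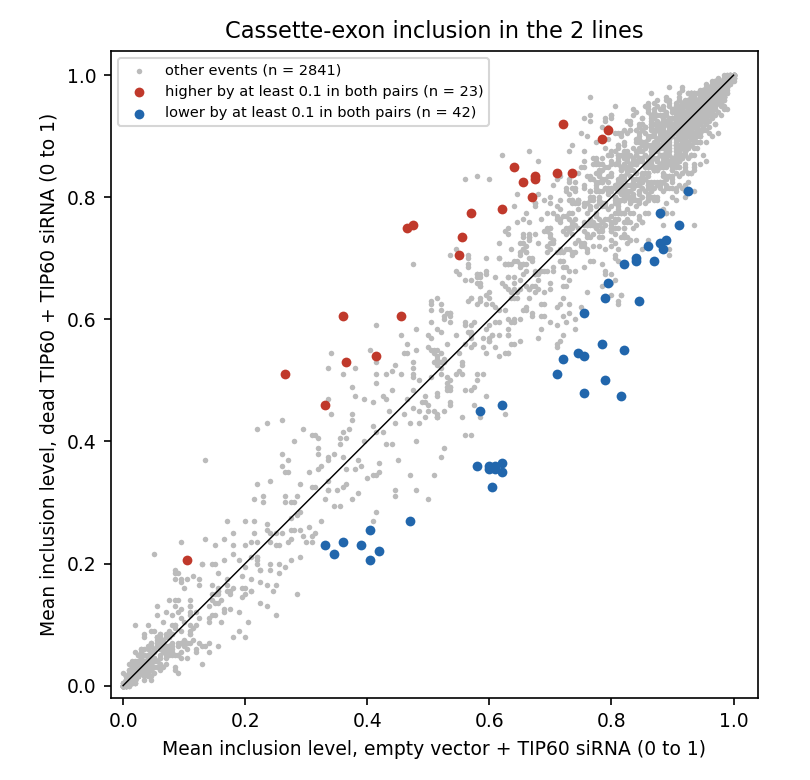
Mean inclusion level of each of the 2906 events in vector cells (x axis) and in dead-TIP60 cells (y axis), both with TIP60 siRNA, on a scale of 0 to 1. Red and blue points are the 23 and 42 events at least 0.1 higher or lower in both same-number pairs, and most other points lie near the line of equality.

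Exons that differed between the siRNAs were compared between the lines. They were picked in wild-type TIP60 cells, whose libraries are no part of the comparison, as events at least 0.2 apart between the siRNAs in both pairs. An active resistant copy was present in those cells, so exons whose levels such a copy restores were left out by the pick. The picked exons therefore cannot decide what an active copy restores and a dead copy does not. Picked were 4 exons that were higher and 20 that were lower with TIP60 siRNA on main chromosomes, of 2602 that could be picked. For the 20 lower exons the median difference of dead TIP60 minus vector was 0.0475, with 14 above and 6 below 0, against a median of 0 over all 2906 events. The median siRNA difference of these exons was -0.307 in vector cells and -0.323 in dead-TIP60 cells. The differences between the lines ran from -0.27 to 0.145. For the 4 higher exons the median difference between the lines was -0.0475, in a range from -0.185 to 0. The means of the lines were less than 0.05 apart for 7 of the 24 exons (29.2%) and more than 0.1 apart for 10 (41.7%), 6 higher and 4 lower in dead-TIP60 cells. Over the 2732 events on main chromosomes, many of which have levels near 0 or 1, these shares were 73.8% and 7.47%. None of the 24 passed the adjusted test (limma).

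MYL6, ADD3, SBF1 and PPP3CB hold picked exons with small differences between the lines, while the exons of MARK3 and SLC37A2 given after them were not picked. MYL6, a light chain of non-muscle myosin, had levels of 0.22 and 0.26 for its 45-nt exon in vector cells and 0.2 and 0.3 in dead-TIP60 cells, against 0.63 and 0.86 and 0.79 and 0.8 with control siRNA. The ranges of the lines overlapped under TIP60 siRNA (difference 0.01 ± 0.0584, SE). ADD3, an adducin of the membrane cytoskeleton, had 0.72 and 0.58 for its 96-nt exon in vector cells and 0.71 and 0.59 in dead-TIP60 cells (difference 0 ± 0.0849), against 0.22 and 0.16 and 0.05 and 0.04 with control siRNA. SBF1, a catalytically inactive relative of the myotubularin phosphatases, had 0.14 and 0.22 and then 0.12 and 0.34 for its 78-nt exon, a difference of 0.05 ± 0.0373. For each of these 3 exons the libraries of the lines overlapped under TIP60 siRNA and lay apart from the control-siRNA libraries of their own line. Wild-type TIP60 cells with TIP60 siRNA had 0.33 and 0.3 for MYL6, 0.64 and 0.79 for ADD3 and 0.12 and 0.34 for SBF1.

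For the 30-nt exon of PPP3CB, a catalytic subunit of calcineurin, the levels were 0.94 and 0.88 and then 0.88 and 0.88, against 0.62 and 0.5 and 0.59 and 0.5 with control siRNA. MARK3, a microtubule-affinity regulating kinase, had 0.02 and 0.02 and then 0.04 and 0.07 for its 27-nt exon, against 0.36 and 0.41 and 0.47 and 0.48 with control siRNA. None of these differences between the lines passed the test (adjusted p = 0.979 for each, limma).

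The 57-nt exon of SLC37A2, an endoplasmic reticulum carrier of sugar phosphates, had 0.12 and 0.2 in vector cells and 0.13 and 0.15 in dead-TIP60 cells (-0.02 ± 0.0753, adjusted p = 1, limma). With control siRNA it had 0.58 and 0.68 in vector and 0.4 and 0.57 in dead-TIP60 cells. Wild-type TIP60 cells with TIP60 siRNA had 0.64 and 0.64, above all 4 libraries compared here. No test of the wild-type against the dead copy was made.

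Of the picked exons, ABI1, MST1R and NRM were at least 0.1 apart between the lines in both pairs. ABI1 is a subunit of the WAVE complex, which drives actin branching, and its 87-nt exon printed above had 0.33 and 0.39 in vector cells and 0.2 and 0.27 in dead-TIP60 cells. The control-siRNA levels were 0.62 and 0.86 and then 0.68 and 0.71, and both dead-TIP60 libraries lay below both vector libraries (difference -0.125 ± 0.0558, adjusted p = 0.979). The reads behind these levels were 18 with and 19 without the exon and 20 and 16 in vector cells, and 17 and 26 and then 10 and 15 in dead-TIP60 cells. MST1R, the receptor tyrosine kinase RON, had the opposite sign, with 0.33 and 0.5 in vector cells and 0.47 and 0.61 in dead-TIP60 cells for its 147-nt exon, and its groups overlapped (0.125 ± 0.0729, adjusted p = 0.979). NRM, which encodes the nuclear membrane protein nurim, had 0.61 and 0.63 and then 0.42 and 0.28 for a 177-nt exon (-0.27 ± 0.0954, adjusted p = 0.935). Its control-siRNA levels were 0.52 and 0.81 and then 0.69 and 0.64, and the same counts are listed again on 6 alternate contigs of chromosome 6. Reads of NRM without the exon were 1 of 16 and 4 of 17 in vector cells and 9 of 25 and 6 of 11 in dead-TIP60 cells. Wild-type TIP60 cells with TIP60 siRNA, in which the exon was picked as lower, had 0.32 and 0.42, near the dead-TIP60 libraries. The other picked exons over 0.1 apart, named after their values were seen, did not differ by that much in both pairs. OS9, a lectin of endoplasmic reticulum quality control, had 0.3 and 0.26 and then 0.39 and 0.41 for its 165-nt exon, without overlap (0.12 ± 0.0674, adjusted p = 0.979). The 249-nt exon of TRERF1 had 0.4 and 0.35 and then 0.47 and 0.51, again without overlap (0.115 ± 0.0822, adjusted p = 0.979). MTA1, a subunit of the NuRD complex, had 0.36 and 0.32 and then 0.4 and 0.49 for its 51-nt exon, without overlap (0.105 ± 0.0925, adjusted p = 0.979). With control siRNA, MST1R had 0.77 and 0.78 in vector and 0.67 and 0.87 in dead-TIP60 cells. In the same order, OS9 had 0.52 and 0.61 and then 0.56 and 0.61. The TRERF1 exon had 0.59 and 0.89 and then 0.83 and 0.83, and MTA1 had 0.49 and 0.84 and then 0.8 and 0.87. The kinase gene PAK4 (189 nt) and PGAP2 (175 nt) were higher by 0.12 and 0.145 and RBM10 (231 nt) and ASPM (4755 nt) lower by 0.125 and 0.185, and in PAK4, PGAP2 and RBM10 the groups overlapped. Few reads of the skipped form lay behind 2 of them. In ASPM they were 0 of 237 and 0 of 344 in vector cells and 4 of 776 and 1 of 99 in dead-TIP60 cells. In PGAP2 they were 0 of 28 and 3 of 20 and then 0 of 21 and 0 of 27, and its pairs differed in opposite directions, by -0.14 and 0.43.

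**Figure D2:**
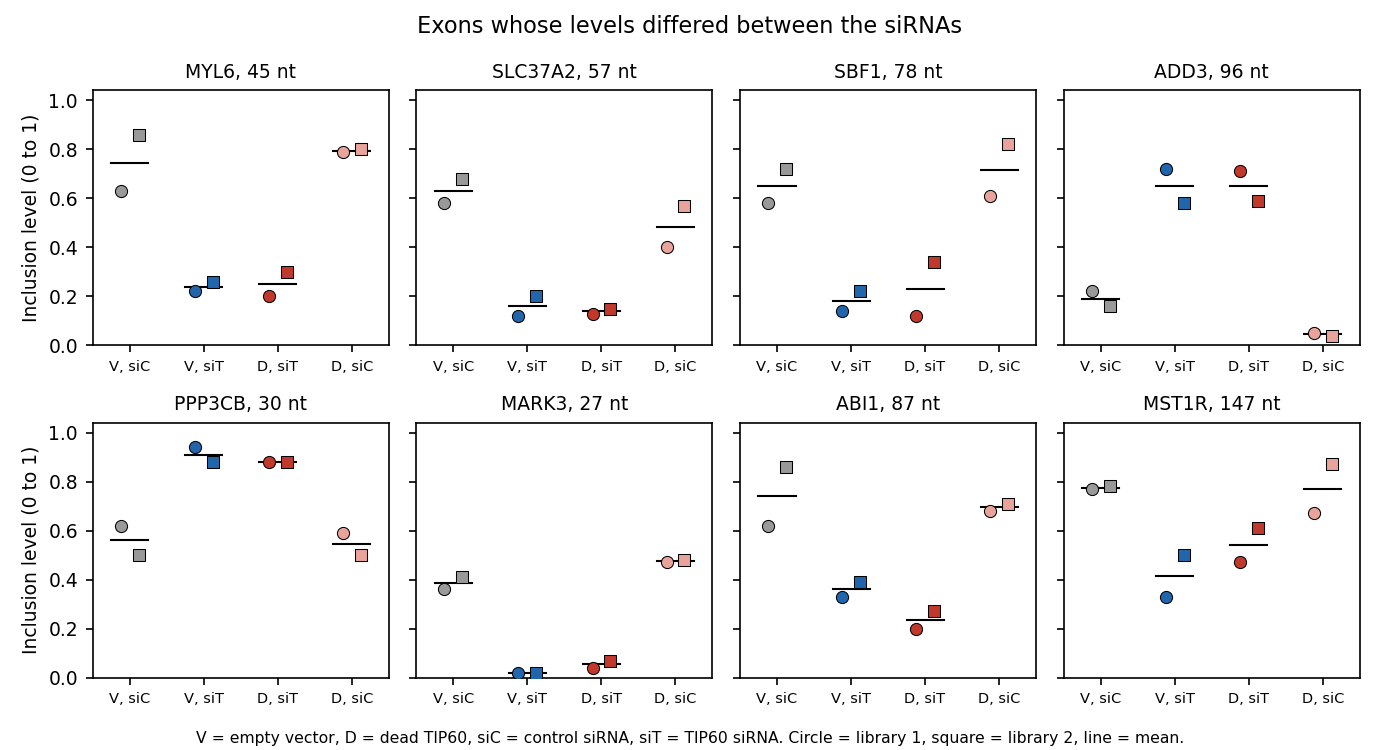
Inclusion level (0 to 1) of 8 exons in vector (V) and dead-TIP60 (D) cells with control (siC) or TIP60 siRNA (siT), with each library as a point and the mean as a line. In the first 6 exons the V, siT and D, siT libraries lie together and away from the control-siRNA libraries; for ABI1 they are 0.33 and 0.39 against 0.2 and 0.27, and for MST1R 0.33 and 0.5 against 0.47 and 0.61.

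Exons that differed by at least 0.1 the same way in both pairs numbered 65 of 2906 (2.24%), 23 higher (0.791%) and 42 lower (1.45%) in dead-TIP60 cells. Without alternate contigs there were 58 of 2732 (2.12%), 22 higher (0.805%) and 36 lower (1.32%). With control siRNA the same rule found a like number between the lines, 52 of the 2752 events measured in all 8 libraries (1.89%), 23 higher (0.836%) and 29 lower (1.05%). With TIP60 siRNA there were 54 (1.96%), 20 higher (0.727%) and 34 lower (1.24%). Of these 54, 3 also differed the same way with control siRNA, all of them lower. The siRNA itself separated 173 events (6.29%) in vector cells by this rule, 42 higher (1.53%) and 131 lower (4.76%). In dead-TIP60 cells it separated 194 (7.05%), 46 higher (1.67%) and 148 lower (5.38%). The 95% intervals of the levels did not overlap in both pairs for 1 event (0.0344%), the 139-nt exon of ERP29, a chaperone of the endoplasmic reticulum. Its levels were 0.97 and 0.9 in vector cells and 0.89 and 0.82 in dead-TIP60 cells, and 0.92 and 0.78 and 0.83 and 0.79 with control siRNA (difference -0.08 ± 0.0274, adjusted p = 0.935).

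EIF4H is a translation initiation factor that stimulates the helicase eIF4A. Its 60-nt exon (chr7:74190247-74190306, plus strand) had levels of 0.4 and 0.44 in vector cells, and 0.19 and 0.25 in dead-TIP60 cells. The dead-TIP60 libraries lay among those with control siRNA, at 0.18 and 0.24 in vector and 0.13 and 0.25 in dead-TIP60 cells, and near wild-type TIP60 cells with TIP60 siRNA, at 0.25 and 0.24. Reads with and without the exon numbered 87 and 58 and then 65 and 29 in vector cells, and 64 and 124 and then 34 and 36 in dead-TIP60 cells. The difference was -0.2 ± 0.0294 (SE, 2 libraries a group; limma adjusted p = 0.382). That between the lines was -0.02 with control siRNA, and the difference between these differences was -0.18 ± 0.0416 (limma adjusted p = 1).

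PUM2, a Pumilio protein that binds and represses mRNAs, had a 237-nt exon (chr2:20278583-20278819, minus strand) at 0.83 and 0.68 in vector cells and 0.53 and 0.43 in dead-TIP60 cells. Here the dead-TIP60 libraries lay below 0.92 and 0.96 and 0.87 and 0.82 with control siRNA and 0.71 and 0.74 in wild-type TIP60 cells with TIP60 siRNA. Reads without the exon were 3 of 50 and 11 of 73 in vector cells and 35 of 141 and 9 of 23 in dead-TIP60 cells (difference -0.275 ± 0.0548, limma adjusted p = 0.586). GOLGA4, a golgin of the trans-Golgi network, had 0.55 and 0.39 and then 0.26 and 0.28 for its 63-nt exon (chr3:37361243-37361305, plus strand), and 0.55 and 0.46 and 0.52 and 0.45 with control siRNA (-0.2 ± 0.0445, adjusted p = 0.631). Both dead-TIP60 libraries of GOLGA4 lay below the 6 others given. Wild-type TIP60 cells with TIP60 siRNA, however, had 0.44 and 0.28 for this exon, and their library 2 equalled that of dead-TIP60 cells. The 51-nt exon of FAM173A (chr16:722084-722134, plus strand), a mitochondrial lysine methyltransferase, had 0.83 and 0.93 and then 0.73 and 0.82, so that the groups lay next to each other without overlap (-0.105 ± 0.0205, adjusted p = 0.586). NHP2, a protein of H/ACA small nucleolar ribonucleoproteins, had 0.97 and 0.89 and then 0.93 and 0.84 on over 900 reads in each library (-0.045 ± 0.00938, adjusted p = 0.586).

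The next exons had higher levels in dead-TIP60 cells. AMIGO2, a cell adhesion protein, had 0.37 and 0.36 in vector cells and 0.51 and 0.55 in dead-TIP60 cells for a 107-nt exon of its 5′ UTR, and 0.61 and 0.54 and 0.52 and 0.57 with control siRNA (0.165 ± 0.038, limma adjusted p = 0.642). LGMN, the lysosomal protease legumain, had 0.83 and 0.76 and then 0.94 and 0.88 for a 68-nt exon, with 0.93 and 0.87 and 0.92 and 0.86 with control siRNA. Reads of LGMN without the exon were 4 and 1 in vector cells and 0 and 0 in dead-TIP60 cells. CFLAR, which encodes the caspase-8 inhibitor c-FLIP, had 0.91 and 0.88 and then 0.97 and 0.95, against 0.98 and 0.96 and 0.97 and 0.96 with control siRNA (0.065 ± 0.0128, adjusted p = 0.586). CASP1, the inflammatory caspase, had 0.8 and 0.85 and then 0.93 and 0.92 (0.1 ± 0.0229, adjusted p = 0.642). BECN1, a core protein of autophagy, had 0.81 and 0.84 and then 0.87 and 0.94 (0.08 ± 0.0185, adjusted p = 0.642). These exons do not stand for all the higher ones, and 4 others, named after their values were seen, had a mean level in dead-TIP60 cells above the mean of either line with control siRNA. The 15-nt exon of SPTAN1, the non-erythroid alpha spectrin, had 0.08 and 0.13 in vector cells and 0.18 and 0.23 in dead-TIP60 cells, against 0.07 and 0.22 and then 0.15 and 0.17 with control siRNA (0.1 ± 0.0348, adjusted p = 0.935). MARK2, a kinase related to MARK3, had 0.19 and 0.47 and then 0.29 and 0.63 for a 162-nt exon, against 0.2 and 0.56 and 0.27 and 0.46 with control siRNA. ARHGEF28 (78 nt) had 0.15 and 0.38 and then 0.36 and 0.66, against 0.33 and 0.26 and 0.26 and 0.27. IFT22, a subunit of intraflagellar transport, had 0.78 and 0.69 and then 0.89 and 0.79 for a 90-nt exon, against 0.6 and 0.62 and 0.65 and 0.54. The adjusted p was 0.979 for each of these last 3 (limma). The comparison with the dead-TIP60 line and that with control siRNA share the vector libraries with TIP60 siRNA.

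RAD17, which loads the DNA damage clamp, had 0.71 and 0.57 in vector cells and 0.86 and 0.84 in dead-TIP60 cells for a 184-nt exon (0.21 ± 0.0424, adjusted p = 0.586), from as few as 13 isoform-specific reads. JADE2, a scaffold of the HBO1 acetyltransferase complex, had 0.43 and 0.61 and then 0.54 and 0.69 for a 129-nt exon (0.095 ± 0.0205, adjusted p = 0.631). For JADE2 the line difference was as large with control siRNA, 0.55 and 0.71 and then 0.67 and 0.8, a difference of 0.105. The following 3 exons were chosen after their values were seen, among those with reads of both forms. STOML1 (213 nt) had 0.57 and 0.54 in vector and 0.71 and 0.76 in dead-TIP60 cells, GINS3 (234 nt), a subunit of the replicative GINS complex, had 0.64 and 0.8 and then 0.93 and 0.91, and BTN2A1 (112 nt), a butyrophilin, had 0.66 and 0.69 and then 0.86 and 0.81. In each of the 3 both dead-TIP60 libraries lay above both vector libraries.

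**Figure D3:**
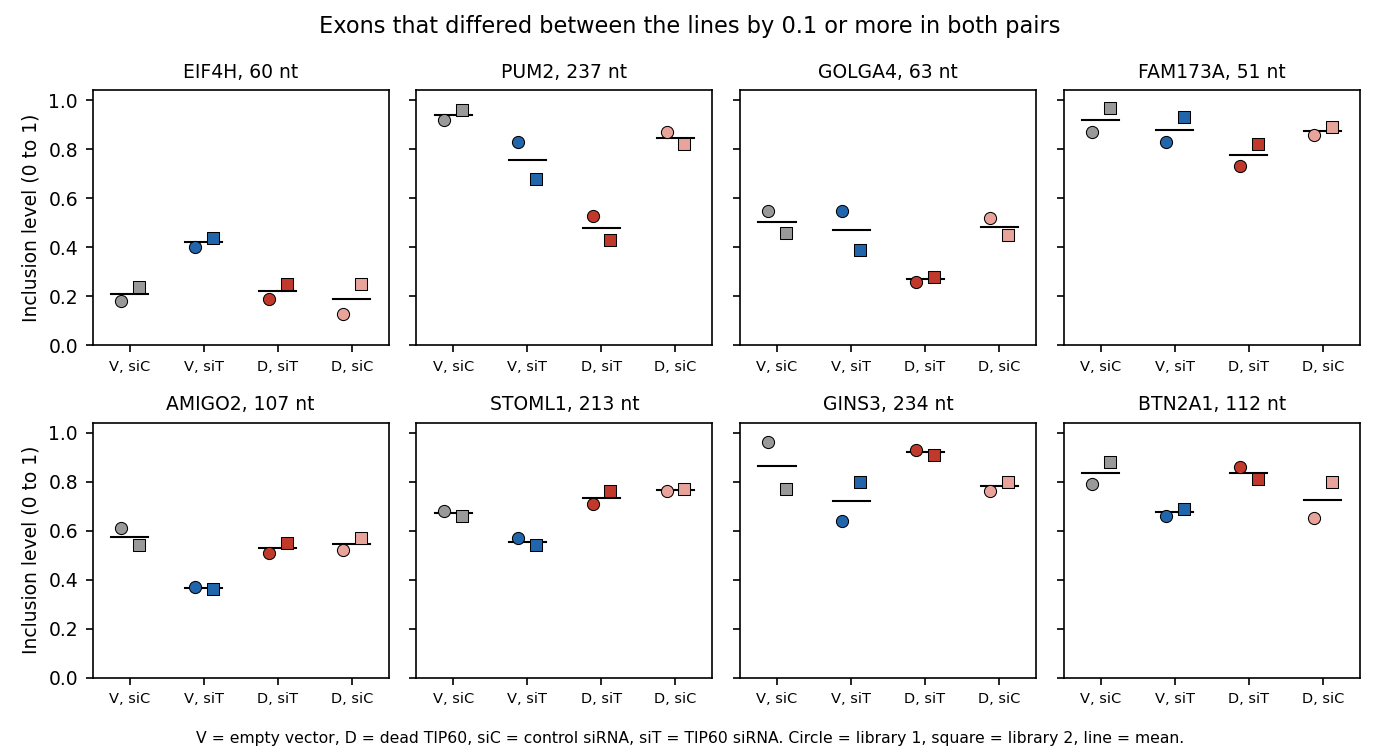
Inclusion level (0 to 1) of 8 exons in vector (V) and dead-TIP60 (D) cells with control (siC) or TIP60 siRNA (siT), with each library as a point and the mean as a line. In EIF4H, PUM2, GOLGA4 and FAM173A the D, siT mean lies below the V, siT mean by 0.2, 0.275, 0.2 and 0.105; in AMIGO2, STOML1, GINS3 and BTN2A1 it lies above by 0.165, 0.18, 0.2 and 0.16.

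Part of the levels rested on reads of 1 form only. For 741 of the 2906 events no read of either the skipped or the included form was seen in the 4 libraries, and 1163 had at least 10 reads of each form in sum. Of the 65 exons that differed by 0.1 in both pairs, 5 had reads of 1 form only, and for 45 the share of isoform-specific reads differed the same way as the level in both pairs. Among the 1163 events the rule found 47 (4.04%), 12 higher (1.03%) and 35 lower (3.01%). NKIRAS2, an inhibitor of NF-kappaB signalling, had the level difference with the smallest interaction p. Its 74-nt exon had 0.65 and 0.49 and then 0.83 and 0.72 (0.205 ± 0.0304, limma adjusted p = 0.382), but all of its 15, 15, 33 and 22 isoform-specific reads had the exon. GPR161, an orphan receptor that restrains Hedgehog signalling at the cilium, had 0.93 and 0.85 and then 0.76 and 0.7 for a 418-nt exon, and every one of its 64, 49, 48 and 38 such reads had the exon. FRMD8, a partner of the rhomboid proteins iRhom, had 0.72 and 0.63 and then 0.91 and 0.75 for a 168-nt exon, again with no read without the exon. For these 3 exons the share of isoform-specific reads differed by 0 between the lines. GIPC1, a PDZ-domain trafficking adaptor, had 0.87 and 0.89 and then 0.71 and 0.74 for a 318-nt exon. Its reads without the exon were 0 and 3 of 352 and 312 in vector cells and 0 and 9 of 277 and 310 in dead-TIP60 cells. Of the other exons named for a small p, YIF1A (156 nt), CHD1L (107 nt) and TSPAN3 (192 nt) also rested on few reads of the skipped form. These were 1, 0, 4 and 0 for YIF1A, 0, 0, 4 and 0 for CHD1L, and 0, 0, 2 and 1 for TSPAN3. COMMD4 (177 nt) had more, with 16, 7, 5 and 4, and so did HNRNPC (161 nt), with 8, 4, 3 and 2.

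Exon length, reading frame and flanking introns of the separated exons were set beside those of all events. Over all 2906 events the median cassette exon had 125 nt, and 56.4% kept the reading frame. Among the 23 higher exons 11 kept the frame (47.8%), and among the 42 lower ones 28 did (66.7%), of which 7 are NRM and its copies. The median exon had 131 nt in the higher and 167.5 nt in the lower ones. Levels in vector cells were between 0.1 and 0.9 for all 23 higher and for 40 of 42 lower exons, against 49.2% of all events, and the median of isoform-specific reads was 33 and 43.4 against 83. Of the 20 lower exons (0.688% of all events) whose libraries were all at least 0.1 apart, 18 kept the frame (90%), NRM and its copies included. Their median flanking introns had 594 nt upstream and 442 nt downstream, against 1880 and 1733 nt over all events and 1021 and 949 nt for the 23 higher exons. NRM and its 6 copies, each with 594 nt upstream and 333 nt downstream, are counted 7 times among the 20. The upstream median is thus the value of NRM itself, and these medians do not describe the separate exons. No test was made of these values.

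Whether the difference between the lines depends on the siRNA was asked by the interaction in the 2752 events measured in all 8 libraries. No event (0%) passed for inclusion (limma, adjusted p), and 81 (2.94%) had an unadjusted p under 0.05, 39 above 0 (1.42%) and 42 below (1.53%). Besides NKIRAS2, the smallest p-values were those of ORMDL1, ANO10, PDCD10 and INO80E. The 73-nt exon of PDCD10, a scaffold protein mutated in cerebral cavernous malformation, had 0.23 and 0.32 in vector and 0.22 and 0.33 in dead-TIP60 cells with TIP60 siRNA, and 0.23 and 0.34 against 0.1 and 0.24 with control siRNA (interaction 0.115 ± 0.0246, adjusted p = 1). ORMDL1, a regulator of sphingolipid synthesis, likewise had its gap between the lines with control siRNA, at 0.5 and 0.6 against 0.38 and 0.44, and not with TIP60 siRNA, at 0.33 and 0.41 against 0.37 and 0.47. INO80E, a subunit of the INO80 remodelling complex, had 0.57 and 0.65 and then 0.61 and 0.73 with TIP60 siRNA, and 0.67 and 0.74 and then 0.52 and 0.64 with control siRNA. ANO10, a member of the anoctamin family, had 0.79 and 0.67 and then 0.7 and 0.52 with TIP60 siRNA, and 0.79 and 0.58 and then 0.83 and 0.75 with control siRNA. Across the 2752 events the difference between the lines with TIP60 siRNA was nearly unrelated to that with control siRNA (Pearson r = 0.0954, libraries of the same lines but not the same libraries).

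Genes of the TIP60 complex other than KAT5 gave 7 events in 4 genes, of which none passed, 1 was higher at an unadjusted p under 0.05 and none was 0.1 apart in both pairs. Their median difference was 0.05, against 0 over all events. The event with p under 0.05 was a 45-nt exon of BRD8, the bromodomain subunit, at 0.39 and 0.33 in vector and 0.47 and 0.55 in dead-TIP60 cells (0.15 ± 0.0487, limma adjusted p = 0.935). Control-siRNA libraries had 0.49 and 0.43 and then 0.54 and 0.42. RUVBL2, an ATPase of the complex, had 0.98 and 0.95 and then 0.99 and 0.95 for a 130-nt exon. MORF4L2, related to the chromodomain subunit MRG15, had 0.89 and 0.46 and then 0.89 and 0.46 for a 102-nt exon, a gap between the numbered libraries and none between the lines. A 45-nt exon of MYO18A, listed with this complex, was under the read minimum, with 0.06 and 0.32 and then 0.2 and 0.44 from 23 and 9 and then 22 and 4 isoform-specific reads.

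No event of any other gene list passed. Of the 40 events in 25 genes whose exons an earlier look at these data had tied to the siRNA, 6 were higher and 4 lower at an unadjusted p under 0.05, with a median of 0.01. Because this list was drawn from the same data, its share cannot be read against that over all events. SR proteins and partners had 0 of 9 and a median of 0.005. Genes of hnRNPs and other splicing regulators had 3 higher and 1 lower of 28, and a median of -0.005. Genes of the epithelial-mesenchymal splicing programme had 0 of 56 and a median of -0.005, and those of actin and adhesion 2 higher and 2 lower of 49 and a median of 0. The p53 pathway and apoptosis list had 3 higher and 0 lower of 34, with CFLAR and CASP1 among them. DNA damage response genes had 1 higher of 11, the 87-nt exon of the checkpoint kinase CHEK2 at 0.73 and 0.84 and then 0.91 and 0.92 (adjusted p = 0.869). Chromatin enzymes had 1 higher of 21, which was JADE2. Cell cycle genes had 2 higher and 1 lower of 28, RNA decay and translation genes 1 higher and 2 lower of 26, EIF4H included, and interferon response genes 0 of 18. Lipid and sterol synthesis genes had 2 higher and 1 lower of 17, and autophagy and lysosome genes 2 higher and 0 lower of 12, BECN1 and ATG12. The medians of these last 8 lists lay between 0 and 0.02. Over all 2906 events 2.20% were higher and 2.72% lower at this p.

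Reads per event, a proxy of expression, went opposite ways in the pairs before any gene was considered. The log2 difference of dead TIP60 minus vector in pair 1 and that in pair 2 correlated negatively across events (Pearson r = -0.543, n = 2906), and the pattern moved with exon length. For the 182 events with a cassette exon over 400 nt the median difference was 0.46 in pair 1 and -0.46 in pair 2, and for the 176 events of up to 50 nt it was 0.01 and -0.09. The median level differences of the over-400-nt exons were 0.02 and -0.02. The part of this in single results was not tested. Scaling by median ratios in place of total event reads changed the divisor of library 2 of dead-TIP60 cells by -0.24 on the log2 scale and that of library 1 by 0.12. The scaled reads therefore moved up in library 2 and down in library 1.

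**Figure D4:**
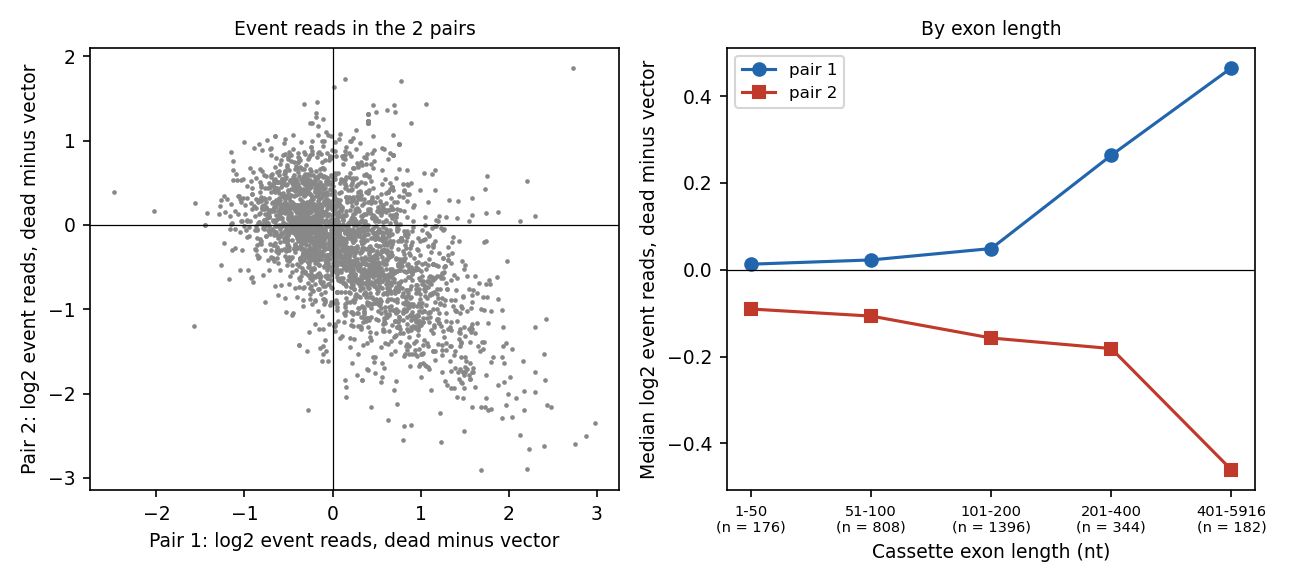
Left, log2 difference in event reads of dead TIP60 minus vector for each of the 2906 events, in pair 1 (x axis) and pair 2 (y axis), with many points at opposite signs (Pearson r = -0.543). Right, the median of this difference by cassette exon length for each pair, which reaches 0.46 and -0.46 for exons over 400 nt.

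No event of 2906 (0%) differed in reads at an adjusted p under 0.05 (limma on log2 of RPM plus 0.5), and 94 (3.23%) had an unadjusted p under 0.05, 58 higher (2%) and 36 lower (1.24%). At least a 2-fold difference the same way in both pairs was found for 3 events (0.103%), 2 higher (0.0688%) and 1 lower (0.0344%). ALDH3A1, an aldehyde dehydrogenase (cassette exon of 167 nt at chr17:19744968-19745134, minus strand), had 107 and 127 RPM in vector cells and 713 and 465 in dead-TIP60 cells. Both dead-TIP60 libraries were above the 52.1 and 256 and the 149 and 187 RPM of control-siRNA cells. The log2 difference was 2.29 ± 0.61 (SE, limma adjusted p = 0.997), and with only the 4 libraries in the fit the adjusted p was 0.00251. The difference was 1.60 without dead-TIP60 library 1 and 2.99 without library 2. FN1, the matrix protein fibronectin, had 377 and 136 RPM and then 785 and 366 at its 270-nt event (1.24 ± 0.54, adjusted p = 0.997), with 169 and 43.1 and then 235 and 83 with control siRNA. Its 4 events were higher by 1.02 to 1.24 on the log2 scale, with pair 1 between 0.70 and 1.73 and pair 2 between 0.43 and 1.71. The mesenchymal markers with a listed event, FN1, ZEB1 and ZEB2, together had 1254 and 319 and then 2490 and 819 RPM. The 4 tested events of FN1 alone held 1254 and 316 and then 2469 and 819 RPM, so that nearly all of these reads were of FN1. The part of these markers in the result was not tested.

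**Figure D5:**
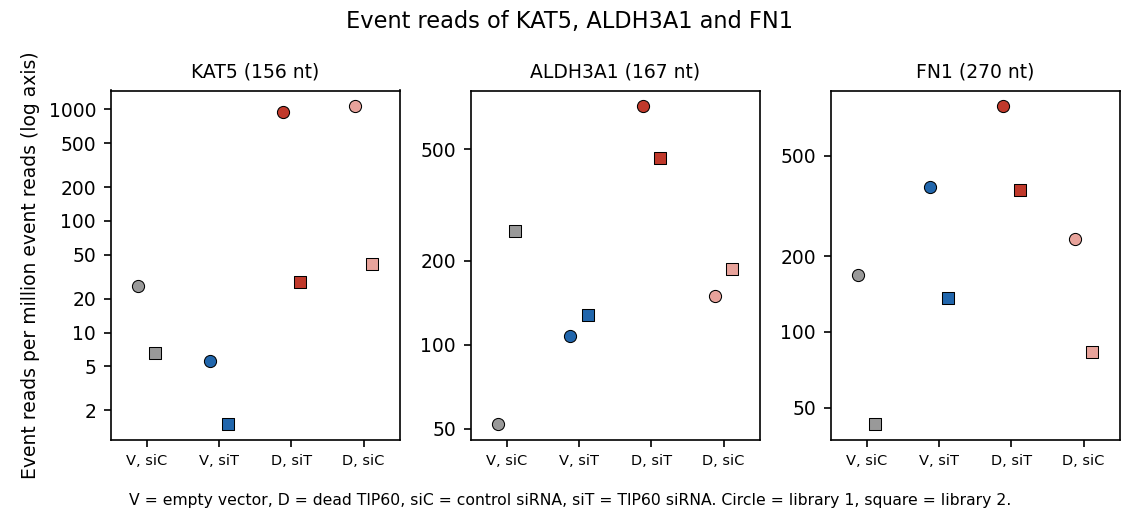
Reads of 1 event each of KAT5, ALDH3A1 and FN1 per 1000000 event reads (log axes that differ between panels), in vector (V) and dead-TIP60 (D) cells with control (siC) or TIP60 siRNA (siT); circles are libraries 1 and squares libraries 2. All 3 are higher in D, siT than in V, siT in each pair.

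Other events named for reads failed the adjusted test (adjusted p = 0.997 for each, limma). IKBKG, the regulatory subunit of the IkappaB kinase, had 38.8 and 12.9 RPM in vector and 72.4 and 30.5 in dead-TIP60 cells, a log2 difference of 1.05 ± 0.28. BRD2, a bromodomain reader of acetylated histones, had 401 and 365 and then 641 and 500 (0.56 ± 0.17), with 293 and 256 and then 328 and 254 with control siRNA. SLC37A2 had 780 and 740 and then 1254 and 988 (0.55 ± 0.2) at the event described above. STEAP3, a ferrireductase, had 844 and 759 and then 461 and 620 at its 232-nt event (-0.58 ± 0.18), below the 662 to 967 RPM of control-siRNA cells in both lines. BID, a pro-apoptotic BCL2-family protein, had 82.1 and 89.5 and then 39.5 and 61.8 (-0.79 ± 0.27). HYPK, a chaperone-like partner of huntingtin, had 543 and 456 and then 226 and 328 (-0.87 ± 0.28). In bulk libraries fewer cells of a kind and less RNA per cell cannot be told apart.

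No event of any list passed in reads (limma). Autophagy and lysosome genes had 3 higher and 0 lower of 12 at an unadjusted p under 0.05 and a median log2 difference of 0.2, against -0.05 over all events. Basal epithelial markers had 1 higher of 6 and a median of 0.2, and the epithelial markers 0 of 5 and a median of -0.33. The pairs went opposite ways in both of these lists, with medians of 0.83 in pair 1 and -0.73 in pair 2 for the basal and 0.34 and -1.84 for the epithelial markers. The mesenchymal list, whose 4 tested events are those of FN1, had a median of 1.16. MUC1, the only luminal marker with a listed event, had 4 events between 0.51 and 0.94 and a median of 0.67. In pair 1 they lay between -0.16 and 0.18 and in pair 2 between 0.85 and 1.74, so that the difference rested on libraries 2. All MUC1 events together had 899 and 118 RPM in vector cells and 1003 and 348 in dead-TIP60 cells. The basal gene ITGB4, an integrin of hemidesmosomes, had 758 and 1788 RPM and then 873 and 3151 (0.51 ± 0.21, adjusted p = 0.997). The p53 and apoptosis list had 0 higher and 3 lower of 34, with a median of -0.09. No interaction of construct and siRNA passed for reads either (0 of 2752, 0%, limma), and 16 (0.581%) had an unadjusted p under 0.05, 3 above 0 (0.109%) and 13 below (0.472%).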

How the data were processed

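Total RNA from MCF10A cells was made into libraries with a stranded mRNA kit, per the labels' protocols. The submitters' processing notes name STAR, an aligner, and hg38, with no version of STAR. For each library, 1 summary was deposited by the authors with, for each cassette-exon event, the inclusion level as a fraction (the posterior mean of MISO, a Bayesian estimator of isoform shares, per the file headers), its 95% interval and the reads compatible with each form. Events were placed on genes with GENCODE 29 (GRCh38). Events with 10 or more isoform-specific reads in all 4 libraries were kept. Of these, 34 repeat both the reads and the levels of another event. Others, such as the copies of NRM, repeat the reads but not the exact levels.

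The level, and log2 of event reads per 1000000 event reads plus 0.5, were fitted with limma 3.58.1 (R 4.3.3; statmod 1.5.0) on 6 groups and the replicate number as a block over 12 libraries, with trended, robust variances, two-sided tests and Benjamini-Hochberg adjustment at 0.05. A value from another library with under 10 reads was left out. The block was kept because same-number libraries deviated together in all 15 pairs of groups (r 0.706 to 0.779 for levels and 0.559 to 0.933 for event reads, 2695 events). With 2 libraries against 2, no exact test can reach 0.05, so levels are also described by differences in both pairs. The fit was tested on simulated data. Members and gene lists were chosen with earlier results of these data known. Named exons are those past the threshold, filled to 10 per direction by smallest unadjusted p among events with the same sign in both pairs, plus the 5 smallest interaction p-values, 2 per list and all exons of the TIP60 complex and of genes tied to the siRNA earlier; others are said to be chosen after their values were seen. Alternatives were another read minimum, scale, model, set of libraries and the fit without the block. Of the events counted past 2-fold in reads, 1 is not reported here.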

Additional observations from a re-analysis of the deposited data

How the results depend on the processing

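The count of 0 inclusion events past the adjusted threshold stayed 0 with 10 reads in all 12 libraries, a minimum of 20 reads, no minimum, log2 odds, only the 4 libraries, main chromosomes and a quasi-binomial model with dispersion held at 1 or above. It was 4 on the share of isoform-specific reads (CDK2, DICER1, LIPG and TMEM205), and 108 in a quasi-binomial model with dispersion free to fall below 1, which was chosen after seeing the data. The quasi-binomial models took only events with at least 10 reads of each form summed over the 12 libraries, which are fewer than the 2906. Leaving out 1 library gave 0 to 2, with 2 without dead-TIP60 library 1 (ADAM15 and MPZL1) and 1 without vector library 2 (CHP1). Without the replicate block that pairs the libraries the count was 0, with 73 events at an unadjusted p under 0.05. For event reads the count was 1 (ALDH3A1) in a fit of only the 4 libraries, 0 with each library left out and 0 without the block. For the inclusion interaction it was 5 on read shares, 100 with free dispersion, 0 to 2 with 1 library left out and 0 without the block; for the reads interaction it was 0 throughout. The 65 exons at least 0.1 apart in both pairs became 10 at 0.2 among the same 2906 events. With 20 reads in each library 28 remained, but fewer events were then counted, so that 28 and 65 are not of the same set. Of 494 values of single exons under these alternatives, 487 kept direction and side of the threshold. These exons were chosen for a small p and the same sign in both pairs, and none passed in the main fit. Few of the values could therefore change, and this count is no measure of how firm the differences are. GOLGA4 (-1.45) and NHP2 (-0.84, both log2 odds ratios) passed with free dispersion and ALDH3A1 in the 4-library fit. FRMD8, GPR161 and NKIRAS2 came to 0 on read shares and HNRNPC on log2 odds. The cause of these changes was not tested. The level of an exon with few isoform-specific reads is limited by depth, as the interval widths show.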
